A study of Mus musculus with 8 samples.

Results

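A set of 10 genes of sensory neurons that are imprinted or give long non-coding RNA were followed across the sexes, namely Meg3, Rian, Mirg, Dlk1, Peg3, Snrpn, Ube3a, Ndn, Malat1 and Miat. They were chosen by name, and the rows with these 10 symbols were taken from count tables of 22609 gene symbols. The counts came from RNA-seq of sensory neurons of the dorsal root ganglion (DRG), the cluster of sensory cell bodies beside the spinal cord. A wheat germ agglutinin conjugate (WGA AlexaFluor 488) was injected into the hindpaw and thigh, and cells that had carried it back to their cell bodies were sorted by flow cytometry (FACS). There were 4 libraries from naive adult females, which the study's methods place in the estrous phase, and 4 from naive adult males, all of the inbred strain C57BL/6J and with no treatment other than the injected tracer. Each library is a bulk sample, so fewer cells of a type and less RNA per cell cannot be told apart, and neurons of skin and of muscle were not separated.

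Imprinted genes are read mainly from the copy of a single parent. In the Dlk1-Dio3 region the maternal copy gives the non-coding RNAs Meg3, Rian and Mirg, which also carry small RNAs, while the paternal copy gives the protein-coding Dlk1, Rtl1 and Dio3. Peg3, Snrpn and Ndn are read from the paternal copy, and in neurons Ube3a is read from the maternal copy while a paternal antisense RNA crosses it. Malat1 and Miat are not imprinted, and their RNAs stay in the nucleus. The mice were inbred, so the parental copies were not told apart and the values below are the sum of both.

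The libraries held 4.80 to 7.33 M gene reads (M, 1e6 reads), so 3 reads, used as the floor, correspond to 0.409 to 0.625 counts per 1e6 gene reads (CPM). All 12 pan-neuronal markers, such as Tubb3 and Uchl1, were read in every library, with a summed level of 21995 to 30847 CPM in females and 22724 to 24764 CPM in males. Glial markers summed to 11629 to 14941 CPM in females and 5445 to 11224 CPM in males, which did not overlap, and 13 of 15 were read in every library. The lowest glial sum was that of male 1. Fibroblast markers summed to 145 to 181 CPM in females and 53.2 to 129 CPM in males, with 7 of 10 read in every library. Macrophage markers reached 19.7 CPM and endothelial markers 17.01 CPM at most. Female 4 stood apart from the other females, with a chi-square per degree of freedom of 30.1 to 44.9 against them, compared with at most 12.1 for any other pair of the same sex. In female 4 the 4138 tested genes with over 5000 exon bases lay at a median of -0.42 on the log2 scale against their own mean of 8 libraries, and the 2162 genes with up to 2000 exon bases at 0.29. In the other libraries these medians lay between -0.06 and 0.14.

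The sequences around the annotated starts are shown for the genes on which the results below turn. All 10 genes had a start window in the RefSeq table of promoters (250 bases before and 50 after a start), 14 windows in all, and each matched mm9 (NCBIM37), the build of the counts, at 1 place. The windows of Meg3, at chr12:110778956-110779255 on the plus strand, and of Peg3, at chr7:6683081-6683380 on the minus strand, are the only ones among the 10 genes that hold TGACGTCA, a palindrome known as the cAMP response element, given in capitals. That motif was searched on both strands, which are alike for a palindrome, and is in 1.79% of 32851 windows.
Meg3: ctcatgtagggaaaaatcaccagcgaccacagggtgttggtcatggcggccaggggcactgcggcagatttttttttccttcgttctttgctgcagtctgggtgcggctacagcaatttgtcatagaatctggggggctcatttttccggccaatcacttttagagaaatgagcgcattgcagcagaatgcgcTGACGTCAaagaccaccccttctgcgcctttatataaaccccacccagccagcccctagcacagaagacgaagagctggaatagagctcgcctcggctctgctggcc
Peg3: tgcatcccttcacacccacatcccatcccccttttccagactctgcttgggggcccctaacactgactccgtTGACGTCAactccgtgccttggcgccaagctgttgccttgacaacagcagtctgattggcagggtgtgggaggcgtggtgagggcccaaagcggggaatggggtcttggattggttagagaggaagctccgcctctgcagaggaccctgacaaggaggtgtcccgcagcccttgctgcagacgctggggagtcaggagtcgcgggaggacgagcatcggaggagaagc
The windows of Ndn, at chr7:69492913-69493212 on the plus strand, and of Snrpn hold the palindrome CGCATGCG, known as the core of the NRF1 motif and also in capitals, which is in 1.87% of windows. All 4 windows of Snrpn hold it. The Snrpn window printed here, at chr7:67150036-67150335 on the minus strand, is letter for letter the window of Snurf, a reading frame upstream on the same transcript.
Ndn: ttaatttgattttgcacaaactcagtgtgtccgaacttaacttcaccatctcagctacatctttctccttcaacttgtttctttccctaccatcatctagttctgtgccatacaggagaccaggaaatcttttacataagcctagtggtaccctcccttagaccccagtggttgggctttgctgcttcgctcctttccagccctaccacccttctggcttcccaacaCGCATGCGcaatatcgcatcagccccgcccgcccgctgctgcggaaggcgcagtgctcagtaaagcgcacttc
Snrpn: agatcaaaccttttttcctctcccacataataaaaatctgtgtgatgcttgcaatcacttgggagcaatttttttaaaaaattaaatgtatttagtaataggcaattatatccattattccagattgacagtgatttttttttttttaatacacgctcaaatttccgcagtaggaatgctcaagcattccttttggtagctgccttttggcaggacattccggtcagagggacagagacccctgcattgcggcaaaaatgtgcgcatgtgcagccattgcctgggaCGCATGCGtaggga
The window of Malat1, at chr19:5802623-5802922 on the minus strand, is shown because the level of Malat1 moved with that of Meg3 across libraries. It holds neither motif. A match is a run of letters and not a measured binding site, and binding was not measured.
Malat1: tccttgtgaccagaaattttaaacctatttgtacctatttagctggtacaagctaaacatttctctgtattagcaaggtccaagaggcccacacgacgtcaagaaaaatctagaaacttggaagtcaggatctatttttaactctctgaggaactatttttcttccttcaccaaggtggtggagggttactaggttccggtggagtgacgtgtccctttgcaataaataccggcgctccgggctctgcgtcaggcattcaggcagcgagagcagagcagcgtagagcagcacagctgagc

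The abundant members were Malat1, Meg3, Ndn and Peg3, and Dlk1 was not read. Malat1 was the 91st most abundant gene by CPM, Meg3 the 312th, Ndn the 313th and Peg3 the 521st. Together the 10 genes took 0.259% ± 0.0233 of gene reads (SD, n = 8), between 0.227% and 0.287% per library. CPM does not compare genes of different length, so levels between genes were set per kilobase of exon. Per kilobase and 1e6 gene reads (RPKM), Ndn was highest at 292 ± 42.2 (SD, n = 8), followed by Malat1 at 153 ± 20.5. Meg3 at 26.7 ± 3.94, Peg3 at 25.3 ± 4.17 and Ube3a at 24.5 ± 5.14 RPKM lay within 1 SD of each other. Miat at 5.24 ± 1.09 and Rian at 4.98 ± 0.888 RPKM did not differ beyond their spread either. Snrpn at 1.07 ± 0.365 and Mirg at 0.560 ± 0.161 RPKM were lowest of the genes with reads. The value of Snrpn may be understated, since reads that fall on both Snrpn and Snurf are set aside by the counting. With the longest transcript of each gene as its length, Peg3 stood at 38.8, Meg3 at 33.3, Rian at 7.78 and Miat still at 5.24 RPKM, so the order of Meg3 and Peg3 and of Miat and Rian turned. On exon length Ndn was 10.9 times and Malat1 5.71 times the level of Meg3.

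**Figure D1:**
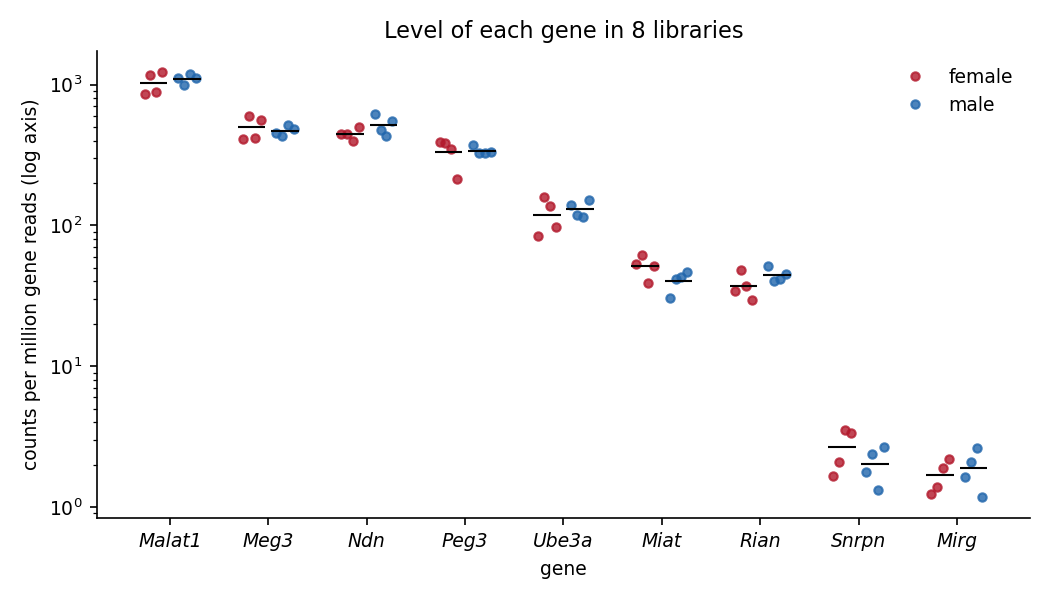
Counts per 1e6 gene reads (CPM) on a log axis for the 9 genes with reads, with 1 point per library, females in red, males in blue and a black bar at the mean of 4. The points of the sexes overlap for every gene, from Malat1 near the top (853 to 1230.4 CPM in females) to Mirg at the bottom (1.24 to 2.19 CPM in females).

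To ask whether these neurons differ between the sexes in imprinted and non-coding RNAs, each gene was tested with edgeR's quasi-likelihood test over 12518 genes with Benjamini-Hochberg adjustment. Of the 9 members with enough reads to be tested, 0 passed an adjusted p of 0.05, where 11 of all tested genes (0.0879%) did, and DESeq2 and limma-voom also gave 0. Of those 11 genes, 6 were Xist, Tsix or Y-linked. At an unadjusted p under 0.05 the members again gave 0 of 9, where 7.11% of all tested genes passed. In 0 of 9 members did the values of the sexes not overlap, against 5.52% of all tested genes. Of the 9 log2 fold changes, female over male, 3 were positive and 6 negative, with a median of -0.11, while the median over all tested genes was 0.00337. For the 7 members with over 100 reads in each library, the 95% intervals of the female to male ratio lay between 0.636 and 1.62. The labels number the libraries without naming the animals, so the p-values measure the spread between libraries.

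**Figure D2:**
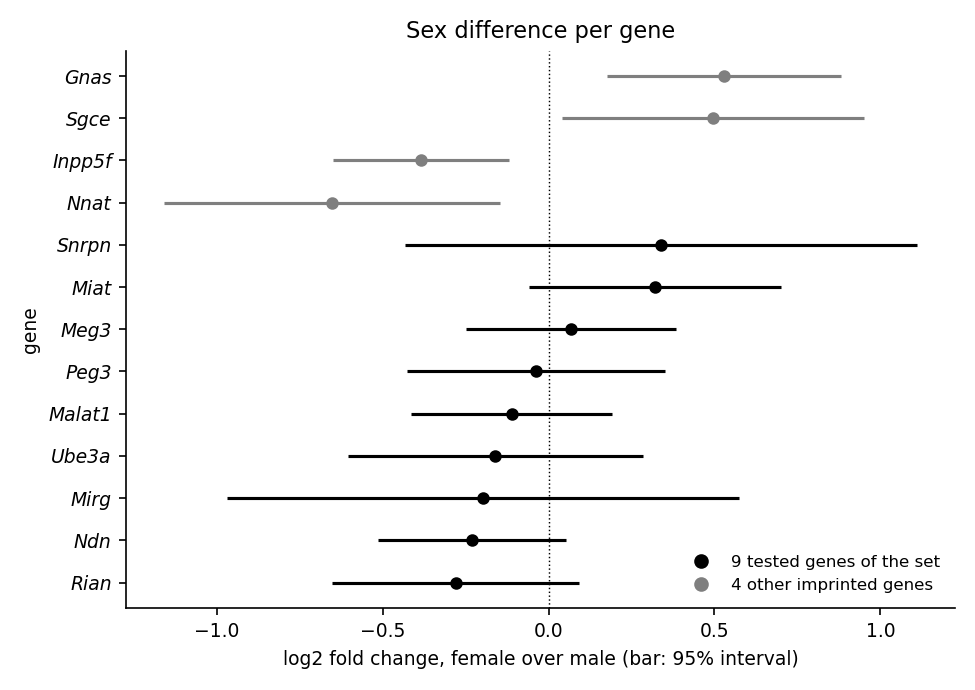
Log2 fold change, female over male, with its 95% interval from edgeR for the 9 tested members in black and for the 4 other imprinted genes with an unadjusted p under 0.05 in grey. The interval of every member crosses 0, from Snrpn at 0.34 to Rian at -0.28, whereas those of Gnas, Sgce, Inpp5f and Nnat do not, and 0 of the 13 passed the adjusted threshold.

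In the Dlk1-Dio3 region of chromosome 12, Meg3 was the main RNA. Meg3, a long non-coding RNA known to restrain growth, lies at chr12:110779211-110809936 on the plus strand with 18089 exon bases in the GENCODE M1 annotation. Its level was 410.1, 603, 417 and 564 CPM in females 1 to 4 and 449.8, 429.7, 515 and 482 CPM in males 1 to 4. Females 2 and 4 were highest and females 1 and 3 lowest, so that the males lay inside the female range. The means were 498 ± 99.4 CPM in females and 469 ± 37.2 CPM in males (SD, n = 4 each). On the log2 scale females stood 0.07 ± 0.14 (SE) above males, with a 95% interval from -0.25 to 0.38 and an adjusted p of 0.919 in edgeR's test.

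Rian, the next RNA of that strand and the host of a large set of box C/D small nucleolar RNAs, lies at chr12:110842155-110899919. It was read at 34.2, 48.1, 36.9 and 29.5 CPM in females and 51.4, 40.1, 41.4 and 44.96 CPM in males. Female 4 was lowest and male 1 highest, and female 2 exceeded all males but male 1. The female to male difference was -0.28 ± 0.17 (SE) on the log2 scale, at an adjusted p of 0.767 by edgeR. Rian gave 8.35, 7.97, 8.85 and 5.23 reads per 100 Meg3 reads in females and 11.4, 9.33, 8.06 and 9.32 in males. The lowest ratio was again in female 4, the highest in male 1, and the sexes overlapped. Per kilobase Meg3 stood 5.37 times above Rian, or 4.27 times when each gene was given the length of its longest transcript.

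Mirg, the microRNA-containing RNA at chr12:110973191-110987665, had only 8 to 16 reads per library. This corresponds to 1.24, 1.39, 1.87 and 2.19 CPM in females and 1.64, 2.08, 2.64 and 1.18 CPM in males. The sexes overlapped, and the log2 fold change of -0.20 ± 0.35 (SE) had an adjusted p of 0.899 in edgeR. Per kilobase Meg3 exceeded Mirg 47.7 times, or 35.6 times by longest transcripts.

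Of the paternal protein-coding genes of the region, Dlk1 and Dio3 were not read and Rtl1 was low. Dlk1, a membrane protein related to Notch ligands, lies at chr12:110691033-110701546 and had 0 reads among 50.7 M gene reads of the 8 libraries, which allows a level of up to 0.0592 CPM. Dio3, which inactivates thyroid hormone, also had 0 reads in every library. Rtl1, a gene derived from a retrotransposon, had 10 to 18 reads per library, at 1.37 to 3.75 CPM in females and 1.82 to 2.37 CPM in males. Rtl1 lies on the opposite strand to the non-coding RNAs, and SMART-seq2, which made the libraries, does not mark the strand. Reads of Rtl1 and of any antisense RNA across it therefore cannot be told apart. The counts also had 48 microRNA rows of the region, of which 36 had 0 reads and 12 had 42 reads in all, at most 4 in 1 library. Libraries primed at poly(A) tails do not capture mature microRNAs, so these rows say nothing of their level. Exons of Meg3 share 94 bases with Mir770 and 80 with Mir1906-1, and exons of Mirg share up to 81 bases with Mir410, and all of these microRNA rows had 0 reads.

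Within the Prader-Willi and Angelman region of chromosome 7, Ndn was the most abundant RNA as counted. Ndn encodes necdin, a protein of postmitotic neurons that supports axon growth and survival, and lies at chr7:69493163-69494814 on the plus strand in 1652 bases of exon. It was read at 448, 446, 399.6 and 498 CPM in females and 614, 473, 433 and 551 CPM in males. Males 1 and 4 exceeded every female, while males 2 and 3 lay among the females. The means were 448 ± 40.0 CPM in females and 518 ± 80.7 CPM in males (SD, n = 4 each). The log2 fold change was -0.23 ± 0.13 (SE), with an interval from -0.51 to 0.05, an unadjusted p of 0.101 and an adjusted p of 0.739 in edgeR. Male 1, the highest library for Ndn, had the lowest glial sum. With the mean glial level as a covariate the log2 fold change of Ndn was 0.01 with an unadjusted p of 0.96 in edgeR. The glial sums of the sexes did not overlap, so glial level and sex cannot be told apart here. The part of glial RNA in the difference was not tested.

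Ube3a, the ubiquitin ligase whose maternal loss causes Angelman syndrome, lies at chr7:66484122-66562097. Its level was 84.4, 158, 136 and 96.9 CPM in females and 140.4, 118, 114 and 152 CPM in males. Females 1 and 4 were below all males and female 2 above all of them. Female over male, the log2 fold change was -0.16 ± 0.20 (SE), at an adjusted p of 0.859 by edgeR. It was -0.020 without female 1 and -0.33 without female 2, and passed 0.05 in neither. Ube3a reads and those of its antisense RNA could not be separated, since the libraries are not stranded and how the counting treated strand is not given in the sources used here.

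Snrpn, which encodes a protein of the spliceosome in neurons, lies at chr7:67127388-67285105 on the minus strand. It had only 8 to 20 reads per library, at 1.65, 2.08, 3.54 and 3.37 CPM in females and 1.77, 2.38, 1.32 and 2.66 CPM in males. Females 3 and 4 exceeded every male and females 1 and 2 lay among the males, the log2 fold change being 0.34 ± 0.35 (SE), at an adjusted p of 0.832 in edgeR. The Snurf row, whose printed start window equals that of Snrpn, had 0 reads in every library. Reads that fall on 2 genes at once are set aside by the counting as ambiguous. Such reads numbered 18627 to 27749 per library, or 0.145% to 0.169% of uniquely aligned reads, far above the 8 to 20 reads of Snrpn. How many of the ambiguous reads lay on Snrpn and Snurf was not tested, so the level of Snrpn may be understated by an unknown amount. The other genes of the region were low. Magel2 had 0 to 9 reads per library, Mkrn3 2 to 9, Peg12 0 to 1, Ipw 0 to 5 and Atp10a 0 to 5, and none was tested. C230091D08Rik, an older symbol of the antisense host gene Snhg14, was read at 3.71 to 12.3 CPM in females and 9.91 to 14.1 CPM in males.

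Peg3, a paternal zinc-finger gene of proximal chromosome 7, lies at chr7:6656603-6683132 on the minus strand. It was read at 390.3, 383, 351 and 215 CPM in females and 374, 326, 328 and 330.0 CPM in males. Female 4 was far below the other 7 libraries, and females 1 and 2 were the highest of all. The log2 difference was -0.04 ± 0.18 (SE), at an adjusted p of 0.967 by edgeR, and without female 4 it was 0.13 with an adjusted p of 0.527. The neighbours of Peg3 were near the floor, with 3 to 15 reads of Usp29, 0 to 3 of Zim1 and 0 to 5 of Zim3 per library.

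Malat1, a nuclear RNA that gathers in splicing speckles, lies at chr19:5795690-5802671 on the minus strand. Its level was 853, 1169, 881 and 1230.4 CPM in females and 1112, 988, 1191 and 1109 CPM in males. As for Meg3, females 2 and 4 were high and females 1 and 3 low, and 3 of 4 males lay inside the gap between them. The means were 1033 ± 194 CPM in females and 1100.1 ± 83.8 CPM in males (SD, n = 4 each), and differed by -0.11 ± 0.14 (SE) on the log2 scale at an adjusted p of 0.855 in edgeR. The annotation places Gm20417 over 425 bases of Malat1 and Gm17639 over 1228 bases of Meg3, both on the opposite strand, and neither has a row of counts.

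Miat, a nuclear RNA of neurons, lies at chr5:112642248-112657968 on the minus strand. It was read at 53.3, 61.4, 39.0 and 51.4 CPM in females and 30.6, 41.4, 43.3 and 47.0 CPM in males. Females 1, 2 and 4 exceeded every male, but female 3 was lower than all males but male 1. The means were 51.3 ± 9.29 CPM and 40.6 ± 7.07 CPM (SD, n = 4 each), and differed by 0.32 ± 0.17 (SE) on the log2 scale, at an unadjusted p of 0.0894 and an adjusted p of 0.734 in edgeR. This was the smallest unadjusted p among the members. With the mean glial level as a covariate the log2 fold change was 0.039 with an unadjusted p of 0.856 in edgeR. As for Ndn, glial level and sex cannot be told apart, and the part of glial RNA in the difference was not tested.

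No library was highest or lowest for all members. Of the 7 members with over 100 reads in each library, female 2 was the highest library of 3 (Meg3, Ube3a and Miat), male 1 of 2 (Rian and Ndn), and females 1 and 4 of 1 each (Peg3 and Malat1). Female 1 was the lowest library of 3 (Meg3, Ube3a and Malat1) and female 4 of 2 (Rian and Peg3). In female 4, where long genes were low in general, the long RNAs of the set went both ways. Peg3 lay at -0.63, Rian at -0.45 and Ube3a at -0.34 on the log2 scale against their own means of 8 libraries, whereas Meg3 lay at 0.23, Malat1 at 0.22 and Miat at 0.19. All 6 have over 5000 exon bases. Males 2, 3 and 4 were neither highest nor lowest for any of the 7.

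The coefficient of variation over the 8 libraries was 13.4% for Malat1, 14.5% for Ndn, 14.7% for Meg3, 16.5% for Peg3, 17.8% for Rian, 20.8% for Miat and 21.0% for Ube3a. Among genes within 2-fold of its own mean CPM, Malat1 stood at the 50.4th percentile of this measure and Ube3a at the 77.4th, the lowest and highest of these 7.

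**Figure D3:**
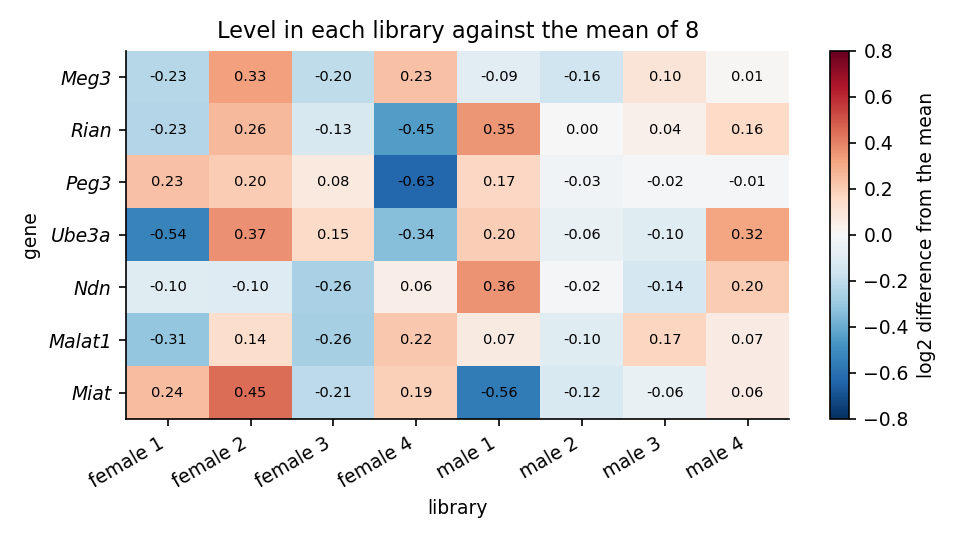
Log2 difference of each library from the gene's own mean of 8 libraries, for the 7 members with over 100 reads in each library, with the value printed in each cell, red above and blue below the mean. Female 4 is lowest for Peg3 (-0.63) and Rian (-0.45) and above the mean for Meg3 (0.23), Malat1 (0.22) and Miat (0.19), while males 2, 3 and 4 stay between -0.16 and 0.32.

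Levels of Meg3 and Malat1 rose and fell together over the 8 libraries. On log2(CPM + 1) Pearson's r was 0.854 (exact permutation p = 0.00957, adjusted p = 0.0191) and Spearman's rho 0.905 (exact permutation p = 0.00456, adjusted p = 0.00913). The tests were two-sided over 40320 pairings and adjusted over the 2 pairs that could be examined. Taken as deviations from the mean of each sex, r was 0.958, given without a p-value since the pairings exchanged libraries between the sexes. Leaving out females 1 and 3, which had the Malat1 levels farthest from the median, r was 0.806 (exact permutation p = 0.0403, adjusted p = 0.0806) and rho 0.771 (exact permutation p = 0.103, adjusted p = 0.103). In the remaining 6 libraries neither passed 0.05 after adjustment. With fewer libraries, a lost call cannot show whether the relation rests on females 1 and 3. Within a sex there were 4 libraries, too few for a separate value. Both RNAs share the library and its total, and 22 of 9067 genes with a mean of at least 10 CPM (0.243%) had an r with Meg3 as high as that of Malat1. The genes most like Meg3 by this measure over the 8 libraries were Polr2j (r = 0.931), Ppp3ca (0.913), Btbd2 (0.912), Sdhaf1 (0.908) and Sco2 (0.90).

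For Meg3 and Rian, neighbours on the same strand, the relation missed 0.05 and depended on female 4. Pearson's r was 0.084 (exact permutation p = 0.841) and Spearman's rho 0.31 (exact permutation p = 0.462). Female 4, with a high Meg3 and the lowest Rian level, lay off the others, and without it r was 0.611 (exact permutation p = 0.145) and rho 0.75 (exact permutation p = 0.0663). Leaving out females 2 and 4, the libraries farthest from the median of Meg3, r was 0.525 (exact permutation p = 0.296) and rho 0.771 (exact permutation p = 0.103). The pairs with Mirg were not computed, since Mirg had under 10 reads in some libraries.

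**Figure D4:**
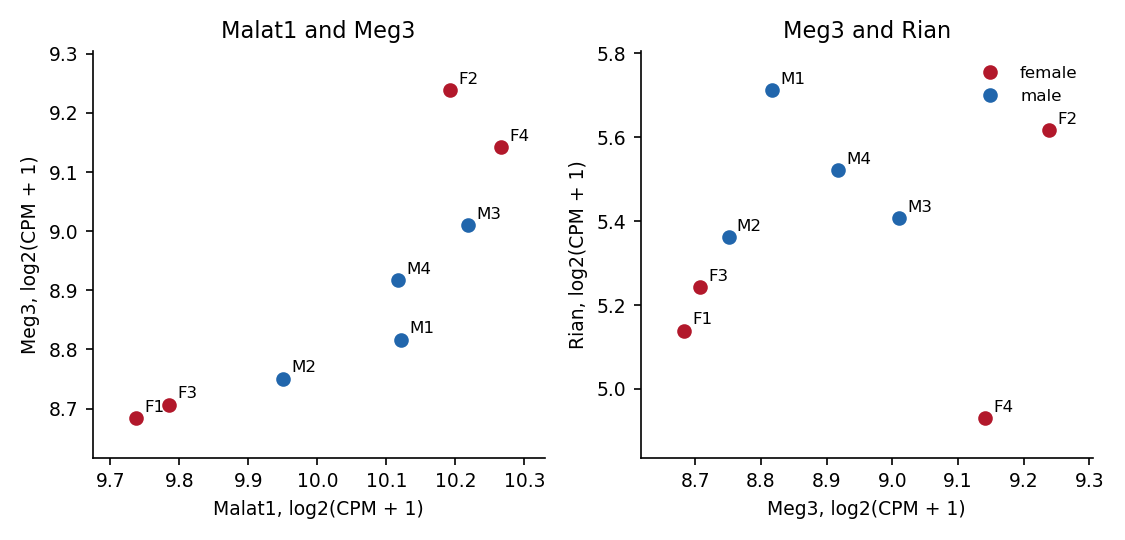
Level of Meg3 against Malat1 (left) and of Rian against Meg3 (right) in log2(CPM + 1), with 1 labelled point per library, females (F) in red and males (M) in blue. On the left the points climb from F1 and F3 to F2 and F4 (r = 0.854), and on the right F4 lies below the other 7 (r = 0.084).

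The other imprinted genes gave 44 rows, of which 23 passed the filter on low counts and 3 (Dio3, Snurf and H19) had 0 reads in every library. At an adjusted p of 0.05, 0 of 23 passed in edgeR's test, and 0 in DESeq2 and limma-voom. At an unadjusted p under 0.05, 4 of 23 passed (17.4%, against 7.11% of all tested genes), with Gnas and Sgce higher and Nnat and Inpp5f lower in females. Counts were per gene symbol, so reads of Gnas (11186 exon bases, longest transcript 3947) and of Inpp5f cannot be assigned to an imprinted transcript. The median log2 fold change of the list was 0.03, with 14 positive and 9 negative. The most abundant per kilobase with a usable length were Nap1l5 (164 RPKM), Gnas (103), Mest (45.6) and Impact (44.0). With the longest transcript as the length Gnas led at 291 RPKM and Nap1l5 stayed at 164, followed by Mest at 70.4 and Impact at 44.0. For C230091D08Rik the annotation gives only 54 exon bases, so its RPKM of 201 is not comparable with these.

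Gnas, which encodes the stimulatory G protein subunit that couples receptors to cAMP, was read at 927, 1469, 1458 and 1600.0 CPM in females and 936, 863, 901 and 1031 CPM in males. Females 2, 3 and 4 exceeded all males and female 1 lay among them. The log2 fold change was 0.53 ± 0.16 (SE), with an unadjusted p of 0.00717 and an adjusted p of 0.613 in edgeR. Without female 1 the adjusted p was 0.0205 and the log2 fold change 0.68, the one imprinted gene and the one setting in which the adjusted threshold was passed. With the glial level as a covariate the log2 fold change was 0.49, against 0.53 without it, and the unadjusted p was 0.0625 in edgeR.

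Nnat, the paternally read neuronatin, was read at 33.4, 43.7, 20.4 and 47.7 CPM in females and 68.4, 51.5, 52.0 and 53.2 CPM in males, which did not overlap. The log2 difference, female over male, was -0.65 ± 0.23 (SE), at an adjusted p of 0.637 by edgeR. Inpp5f, an inositol phosphatase, was read at 78.5, 72.5, 74.0 and 59.6 CPM in females and 89.6, 93.9, 85.9 and 97.5 CPM in males, again with no overlap and an adjusted p of 0.637 by edgeR. Sgce, a sarcoglycan, was read at 18.4, 18.2, 20.4 and 22.7 CPM in females and 8.60, 16.04, 16.2 and 15.1 CPM in males, with no overlap and an adjusted p of 0.683. These were the 3 of 23 genes without overlap, where 5.52% of all tested genes had none. The log2 fold change of Inpp5f was -0.38 both without and with the glial level as a covariate, with which its unadjusted p was 0.0513. That of Nnat was -0.46 with the covariate (unadjusted p = 0.174 in edgeR). That of Sgce went from 0.50 to 0.10 with it (unadjusted p = 0.647 in edgeR). Since the glial sums of the sexes did not overlap, glial level and sex cannot be told apart for these genes and Gnas. The part of glial RNA in their differences was not tested.

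The other long non-coding RNAs gave 36 rows, of which 23 were tested, 3 had 0 reads in every library and 4 are called protein-coding by the annotation. Of the 23, 0 passed an adjusted p of 0.05 (0.0879% of all tested genes) and 0 an unadjusted p of 0.05 (7.11%) in edgeR's test, and 0 passed either in DESeq2 and limma-voom. In 0 did the sexes not overlap (5.52% of all tested genes). The median log2 fold change was -0.04, with 10 positive and 13 negative. Kcnq1ot1, Airn and H19 stand in both lists. Snhg11, a neuronal host gene of small nucleolar RNAs, was the most abundant per kilobase with a usable length (39.1 RPKM) and was read at 289 to 402 CPM in the 8 libraries. It was followed by 2410006H16Rik (21.6 RPKM), Gas5 (13.2 RPKM) and 2210403K04Rik, the host of miR-22 (12.9 RPKM), although with longest transcripts Tug1 (15.4 RPKM) exceeded the last of these (14.1 RPKM). For 2900097C17Rik, the older symbol of Norad, the annotation holds only 339 exon bases, so its RPKM of 433 is not comparable. Neat1, which lies beside Malat1, was read at 11.3 to 14.4 CPM in females and 5.73 to 13.7 CPM in males.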

How the data were processed

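RNA-seq libraries were made per the labels with the Smart Seq II protocol from sorted neurons. For the making of read files the submitters' processing notes name bcl2fastq and the study's methods CASAVA. By both sources the authors aligned reads with TopHat2 to mm9 and counted reads per gene with HTSeq, and the deposited values are raw counts with no normalization. Versions, the annotation and the strand option of the counting are not given in the sources used here. No molecular identifiers were used, so floors (3 reads) cover counting error only.

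CPM were computed over gene reads, without the 5 summary lines of the counting. Reads outside features, one of these lines, made up 57.8% to 60.5% of uniquely aligned reads. Exon lengths and positions came from GENCODE M1 (NCBIM37, mm9), and 21627 symbols matched directly and 74 through older symbols (96.0%). Start windows came from RefSeq and were located in NCBIM37 by exact match. Sexes were compared with edgeR 4.0.16 (quasi-likelihood test, TMM, default filter by sex) in R 4.3.3. The 95% intervals are those of that model and rest on the spread between libraries, and standard errors came from the estimate and its F statistic. Alternatives used DESeq2 1.42.0, limma-voom (limma 3.58.1) and other settings. Correlations used exact permutation tests over pairings. The test was first run on simulated data. Libraries of a sex differed by more than sampling noise (chi-square per degree of freedom at least 2.82) and were kept apart.

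The members and the gene lists were chosen with earlier results of these data known. Named genes were the members, listed genes past the low-count filter with unadjusted p under 0.05 or no overlap, the 5 highest per kilobase of each list and the 5 genes most like Meg3. Genes outside this rule (Rtl1, neighbours in a region, Kcnq1ot1, Airn, H19 and Neat1) were named for their place, and Cdkn1c, Tug1, Dleu2, Sox2ot, D430019H16Rik, Snhg6 and marker genes for their values or as examples, all after values were seen.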

Additional observations from a re-analysis of the deposited data

Results flagged for a closer look

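In 44 groups of 4 libraries (22 genes in each sex among the members and the named genes of both lists), 1 library stood apart from the other 3 by Dixon's test at the 95% level in 6, where chance gives about 2.2 for independent groups. The genes share the same libraries and some were named for their values, so the 6 cannot be weighed against the 2.2. Peg3 in male 1 had 374 CPM against 326 to 330.0 CPM in the other males. Nnat in male 1 had 68.4 CPM against 51.5 to 53.2 CPM, and without male 1 its log2 fold change was -0.54 against -0.65 with it (unadjusted p 0.0535 in edgeR). Sgce in male 1 had 8.60 CPM against 15.1 to 16.2 CPM, and without male 1 its log2 fold change was 0.33 against 0.50 with it (unadjusted p 0.0673 in edgeR). C230091D08Rik (Snhg14) in female 4 had 3.71 CPM against 11.1 to 12.3 CPM in the other females. 2900097C17Rik (Norad) in female 4 had 62.3 CPM against 144 to 159.8 CPM. 2410006H16Rik in male 1 had 8.19 CPM against 10.4 to 10.8 CPM. Of the 6, 4 were in male 1, the library with the lowest glial sum, and 2 in female 4, the library in which long genes were low. The part of either in these values was not tested.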

How the results depend on the processing

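Every count of members past an adjusted p of 0.05 was 0 under all 17 alternatives (DESeq2, limma-voom, other scalings and filters, the replicate block, the glial covariate, the exon length trend removed and each library left out), with a lowest adjusted p of 0.397 in 153 fits of single members. At an unadjusted p under 0.05, 2 members passed with the exon length trend removed (Miat and Ndn, where 1194 of 12518 genes, 9.54%, passed) and 0 to 1 with a library left out (Ndn without female 4, where 1453 of all genes passed, or without male 3, where 809 did, Rian without female 2, with 921, and Miat without female 3, with 681). The log2 fold change turned sign for Meg3 (-0.054 with the glial covariate and -0.042 without female 2, in a range up to 0.16 with a library left out), Peg3 (0.030 with the glial covariate, 0.014 without the length trend, and -0.11 to 0.13 with a library left out, at 0.13 without female 4 and 0.020 without male 1), Ndn (0.0077 with the glial covariate) and Malat1 (0.0030 without the length trend), and the cause was not tested. With a library left out the others ranged from -0.33 (without female 2) to -0.020 (without female 1) for Ube3a, -0.36 (without male 4) to -0.00071 (without male 3) for Mirg, -0.20 (without female 4) to -0.023 (without female 1) for Malat1, -0.43 (without female 2) to -0.18 (without female 4) for Rian, -0.31 (without male 3) to -0.13 (without male 1) for Ndn, 0.17 (without female 3) to 0.53 (without female 1) for Snrpn and 0.21 (without male 1) to 0.42 (without female 3) for Miat, which was 0.039 with the glial covariate. The r of Meg3 and Rian ranged from -0.24 to 0.61 with a library left out, at -0.09 without female 1 and -0.24 without female 2, and that of Malat1 and Meg3 from 0.82 to 0.91.

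For other imprinted genes, 0 to 1 passed the adjusted threshold with a library left out (1, Gnas, without female 1). At an unadjusted p, 5 passed with DESeq2 (929 of all genes), limma-voom (895), the replicate block (872) and the exon length trend removed (1194), Impact being the added gene. Without the filter 6 passed, with Impact and with Cdkn1c at 0 to 4 reads per library, where 1115 of all genes did. In contrast, 0 passed with the glial covariate (log2 fold changes 0.49 for Gnas, -0.38 for Inpp5f, -0.46 for Nnat and 0.10 for Sgce) and 2 to 7 with a library left out (7 without female 1, where 1204 of all genes passed, and 2 without male 1, where 587 did). For other long non-coding RNAs, 1 passed at an unadjusted p without the filter (Dleu2, where 1115 of all genes passed), 1 with the glial covariate (Sox2ot) and 0 to 1 with a library left out (D430019H16Rik or Snhg6). Over all genes, where 11 passed the adjusted threshold, 48 did with DESeq2, 5 with the glial covariate, 6 with the replicate block and 7 to 84 with a library left out (84 without female 1, 7 without male 4). Over all genes, 306 passed an unadjusted p with the glial covariate and 587 to 1453 with a library left out (587 without male 1, 1453 without female 4).

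Libraries share only a number across the sexes. Same-numbered libraries deviated together with r of 0.103, -0.117, 0.151 and 0.0101 for numbers 1 to 4, and 872 genes passed an unadjusted p with the replicate block. CPM per 1e6 uniquely aligned reads were lower for every member with reads (196 for Meg3). Mirg and Snrpn, with 8 to 20 reads per library, are limited by depth.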
